A study of Mactra quadrangularis with 2 samples.

Results

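The muscle and actin cytoskeleton unigenes of the clam digestive gland are transcript contigs whose nearest protein match bears the name of actin, myosin, titin or another protein of the contractile or filament apparatus. A unigene was a member when its first Nr match or its Swiss-Prot match held the word myosin, tropomyosin, troponin, twitchin, titin, calponin, catchin, actin at the start of a word, actinin, filamin, gelsolin, villin, spectrin, talin or muscle. Acetylcholine receptors, the cluster CL717 and kinases named for neither myosin nor titin were left out, which removed 2 of the 63 matching rows. The 61 members belong to 59 contig clusters and stand among 4337 unigenes with a protein description, 17625 unigenes called changed by the authors and 124752 unigenes in all. No member's name held tropomyosin, troponin, twitchin, catchin, actinin, villin or talin. Descriptions came only with the authors' called unigenes, so the levels of those proteins were not analysed here.

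The clams were Mactra veneriformis, which the organism label gives as Mactra quadrangularis. Control clams were kept in water with DMSO at 0.05% v/v, and exposed clams in water with the same share of DMSO and a nominal 5 µg/L of BDE-47, a brominated diphenyl ether flame retardant, for 3 days. Glands of 30 clams were pooled for RNA, and the series text describes 3 replicates a group, but the tables hold 1 library a group of whole poly(A) RNA. Sequencing depth was close, at 15.6 M fragments for the control and 15.9 M after BDE-47. No difference below therefore has a replicate check, and no p-value was computed.

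Actin polymerises into thin filaments, and myosins are motors that pull on them while they split ATP. In muscle, myosin heavy chains bundle into thick filaments and carry light chains on their necks, and bivalves are known for catch muscles that hold tension at little cost. Outside muscle, the same proteins and their crosslinkers shape the cell cortex, the microvilli of digestive epithelia and the traffic of vesicles. In whole glands, fewer cells of a type and less RNA per cell cannot be told apart.

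A unigene was counted as higher or lower in the BDE-47 library when its FPKM plus 0.1 differed by a log2 ratio of 1 or more, it held 20 or more fragments over both libraries, and the exact 95% binomial interval of the ratio excluded 1. FPKM is fragments per kilobase of unigene and per 1 M fragments of the library. A fold compares fragments after division by each library's total, and the interval after each fold is that 95% interval, which covers counting error only. Of the 61 members, 20 were higher, 38 were lower and 3 were not past these limits. Across all 124752 unigenes the rule called 12.4% of those with 20 or more fragments higher and 16.2% lower, and the authors called 14.1% of all unigenes changed. Since every member came from the authors' called table, the number past the rule was fixed by that choice, and only the direction can be read. Among the 4337 described unigenes 33.9% were higher and 60.1% lower, against 32.8% and 62.3% of the members. The members as a whole thus split between higher and lower much as other described unigenes did. Their median log2 ratio was -1.31, beside -1.19 for all described unigenes.

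The direction split by role. All 3 myosin light chains and 4 of 5 actins were higher in the BDE-47 library, while 19 of 23 myosin heavy chains and all 3 gelsolin and severin unigenes were lower. Titin-like and other giant proteins went both ways, with 4 higher and 5 lower of 10. Summed fragments of all members numbered 13703 and 15226 in the control and BDE-47 libraries, a log2 ratio of 0.12, but 1 actin contig carried much of this, and without it the log2 ratio was -0.58. Members ran from 287 to 8426 bases, with a median of 1471, and held a median of 189 fragments over both libraries, so that 16 members rested on fewer than 100.

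**Figure D1:**
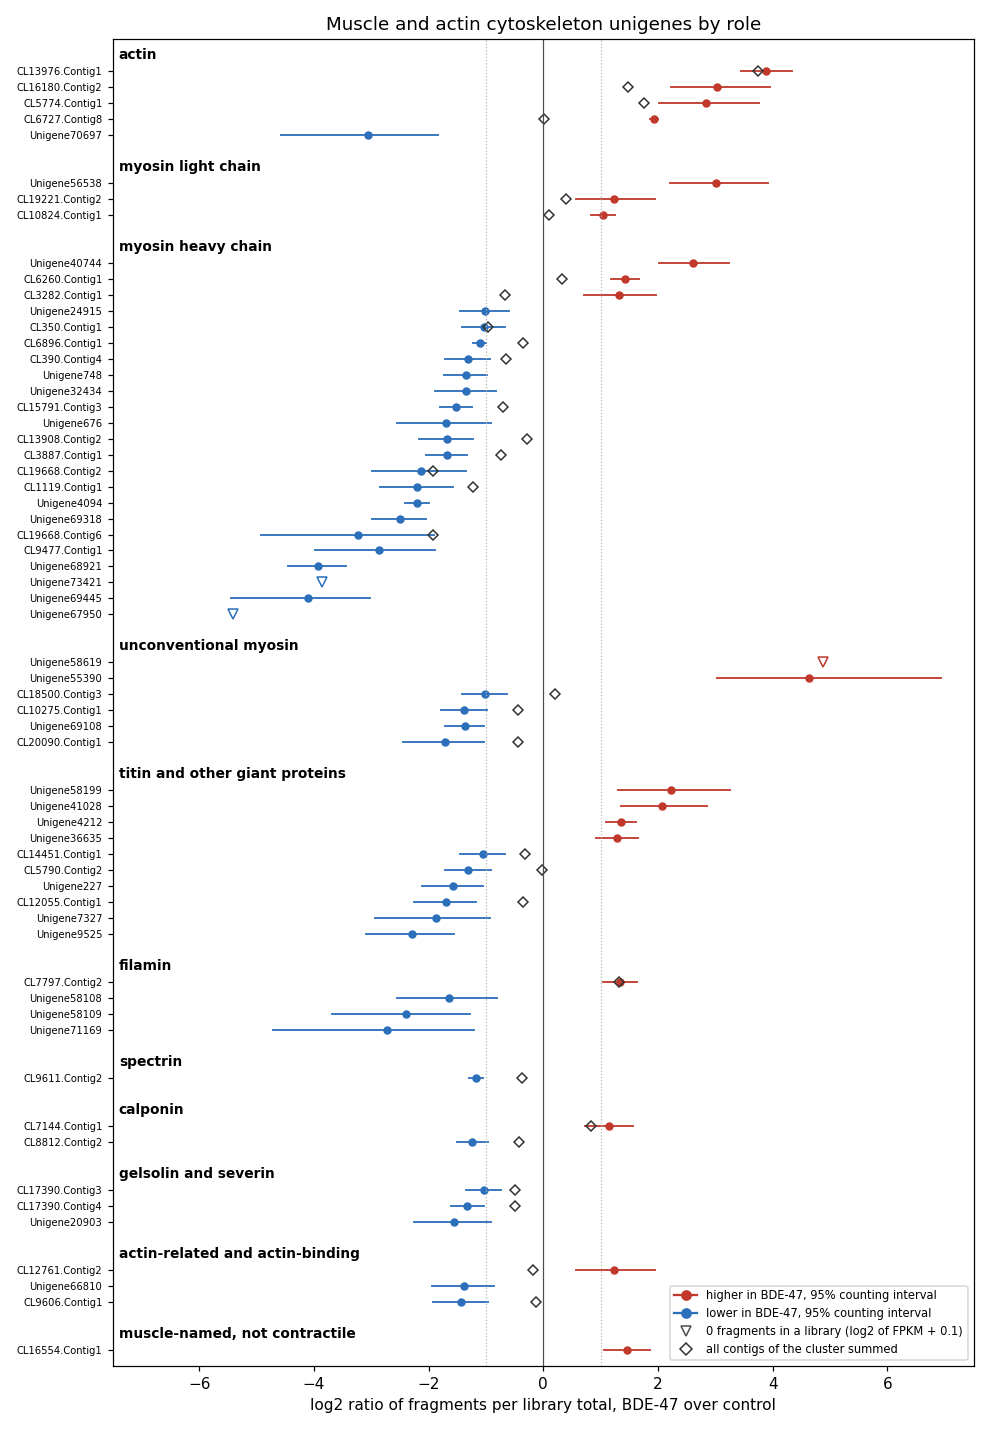
Log2 ratio of fragments per library total, BDE-47 over control, for each of the 61 members by role, with the 95% counting interval as a bar, open triangles for members with 0 fragments in a library (log2 of FPKM plus 0.1) and open diamonds for the summed contigs of the cluster. The light chains lie above 0, as do the actins with 1 exception, most of the 23 heavy chains lie below 0, and many diamonds lie nearer to 0 than their member.

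Actin forms the thin filament itself, and all 5 actin members shared the KEGG orthology entry of beta and gamma actin. CL6727.Contig8 was the most abundant member, with 1837 control and 7146 BDE-47 fragments (FPKM of 190 and 725), which is 3.81-fold higher (3.62 to 4.01). Its 618 bases matched a cytoplasmic actin of the lobster Homarus americanus. This contig was a small piece of an 8-contig actin cluster whose summed fragments were 107570 and 110879, or 0.689% and 0.695% of all fragments. The log2 ratio of the whole cluster was 0.01, so total actin fragments of this cluster were nearly level between the libraries while their spread over contigs was not. CL6727.Contig8 took 1.71% of the cluster in the control (1.63 to 1.79, exact binomial) and 6.44% in BDE-47 (6.30 to 6.59). The main contig, CL6727.Contig3, held 45981 and 42084 fragments (FPKM of 2039 and 1827). Among the other contigs, CL6727.Contig4 was 1.55-fold higher in BDE-47 and CL6727.Contig6 was 1.37-fold lower. The contig sequences were not analysed here, so alleles, isoforms and assembly fragments cannot be told apart.

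Of the other animal actins, 3 low ones were higher by larger folds. CL13976.Contig1 had 47 control and 706 BDE-47 fragments, 14.7-fold higher (10.9 to 20.2). CL16180.Contig2 had 14 and 117 fragments, 8.18-fold higher (4.69 to 15.4), and CL5774.Contig1 had 14 and 102, 7.13-fold higher (4.06 to 13.5). Summed over their clusters these 3 actins had log2 ratios of 3.73, 1.47 and 1.75, all past the rule. For the last 2 the sum differed less than the member, since sister contigs held 45 and 50 fragments beside CL16180.Contig2, and 23 and 25 beside CL5774.Contig1. The member held 23.7% of the CL16180 cluster in the control and 70.1% in BDE-47, and 37.8% and 80.3% of the CL5774 cluster. The 5th actin, Unigene70697, matched actin I of the ciliate Opisthonecta henneguyi and was 8.34-fold lower in BDE-47 (3.57 to 23.8), with 49 and 6 fragments. Without CL6727.Contig8 the actin members summed to 124 and 931 fragments, 7.35-fold higher (6.09 to 8.94).

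**Figure D2:**
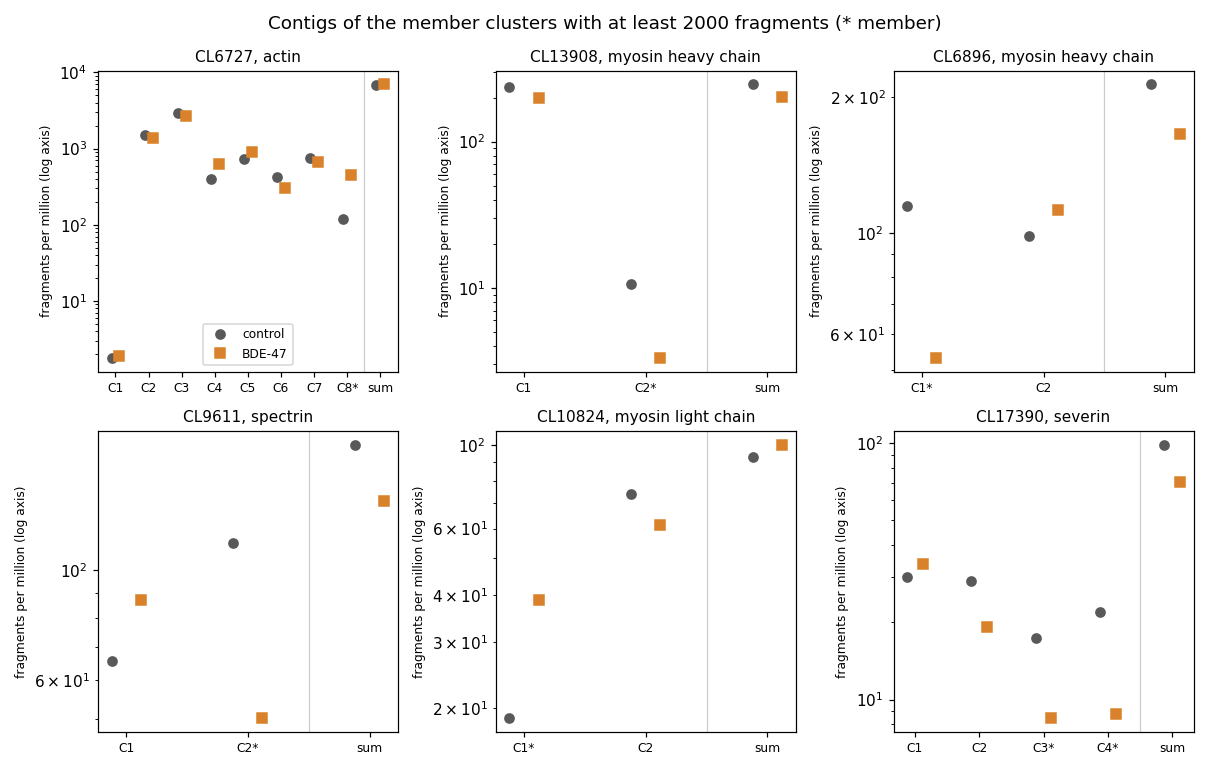
Fragments per 1 M (log axes, with a range of their own in each panel) in the control (circles) and BDE-47 (squares) libraries for every contig of the clusters that hold a member and at least 2000 fragments, with the cluster sum at the right and members starred. In the actin cluster CL6727.Contig8 stood 3.81-fold higher in BDE-47 while the sums lay almost on each other, and in the nonmuscle myosin II, spectrin and light chain clusters the member and its sister contig went opposite ways.

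Myosin light chains clasp the neck of the heavy chain, where the essential chain stiffens the lever and the regulatory chain controls the motor. All 3 were higher in the BDE-47 library, with summed fragments of 335 and 798, 2.33-fold higher (2.05 to 2.66). The essential light chain CL10824.Contig1 had 294 control and 618 BDE-47 fragments, 2.06-fold higher (1.79 to 2.37). Its sister contig had more fragments and went the other way, with 1160 and 980, so that the cluster's log2 ratio was 0.11 and the share of CL10824.Contig1 in it 20.2% and 38.7%. The regulatory chain CL19221.Contig2 had 27 and 65 fragments, 2.36-fold higher (1.48 to 3.84), with a cluster log2 ratio of 0.40. Unigene56538, alone in its cluster, matched the light chain LC-1 of mantle muscle and had 14 and 115 fragments, 8.04-fold higher (4.60 to 15.2). Only for this light chain did the summed cluster stay past the rule.

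Myosin heavy chains hold the motor head and a long coiled-coil rod. The 23 members so named summed to 6194 control and 2688 BDE-47 fragments, 2.35-fold lower (2.25 to 2.46), and their median log2 ratio was -1.62. CL6896.Contig1, a nonmuscle myosin II by name, which draws actin together in the cell cortex and at division, was the best matched, with a Swiss-Prot score of 2165 over 6613 bases. It had 1792 and 847 fragments, 2.16-fold lower (1.99 to 2.35). Its sister contig of 7183 bases had 1538 and 1799, 1.15-fold higher (1.07 to 1.23). The cluster log2 ratio was -0.36, and CL6896.Contig1 went from 53.8% to 32.0% of the cluster. As in the large actin cluster, the cluster sum differed less between libraries than the member contig did.

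Several heavy chains alone in their cluster were lower by larger folds. Unigene4094 had 1077 and 240 fragments, 4.58-fold lower (3.98 to 5.29). Unigene68921 had 537 and 36, 15.2-fold lower (10.9 to 22.0), and Unigene69445 had 118 and 7, 17.2-fold lower (8.10 to 43.8). Fragments in the control library alone were counted on a further pair. Unigene67950 had 75 in the control and 0 in BDE-47, at least 25.5-fold lower when the empty library is set to a floor of 3 fragments, and Unigene73421 had 31 and 0, at least 10.6-fold lower. All of these were named for myosin in Swiss-Prot only. Those matches scored 57.8 for Unigene4094, 113 for Unigene68921, 68.2 for Unigene69445, 71.6 for Unigene67950 and 84.7 for Unigene73421. The Nr matches of Unigene68921, Unigene69445 and Unigene67950 were protist proteins. KEGG gave Unigene69445 as early endosome antigen 1 and the others as myosin heavy chain. CL15791.Contig3, whose Nr match was a laminin, had 411 and 146 fragments, with a cluster log2 ratio of -0.71.

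The 3 heavy chains that were higher were Unigene40744 with 28 and 174 fragments (6.09-fold, 4.07 to 9.42), CL6260.Contig1 with 192 and 527 (2.69-fold) and CL3282.Contig1 with 31 and 79 (2.50-fold). Unigene40744 shared its Nr entry, an oyster protein of unknown role, with Unigene73421 and with CL19668.Contig2 and CL19668.Contig6, which were all lower. The 9 contigs of the CL19668 cluster summed to 200 and 54 fragments, a log2 ratio of -1.92. CL6260.Contig1 lay in a cluster with a log2 ratio of 0.32, and the 22 contigs around CL3282.Contig1 gave -0.66, the opposite direction. The 13 heavy chains not singled out by level or ratio were all lower by fragments per total, by 2.03-fold to 9.40-fold, and 1 of them, Unigene24915, was not past the rule. Naming took out the 3 highest ratios, which were the only ones above 1, so their shared direction was fixed by that choice. Both of these 13 that scored above 200 were picked out with their values in view. CL3887.Contig1 had 277 and 88 fragments, with a cluster log2 ratio of -0.75. Its score of 292 was to a hypothetical protein of Branchiostoma floridae in Nr. Its Swiss-Prot match to the striated muscle myosin of the scallop Argopecten irradians scored only 71.6. CL13908.Contig2, named Myosin-10 in Nr but a protein with epidermal growth factor domains in Swiss-Prot, had 167 and 53, beside a sister contig of 11798 bases with 3673 and 3174.

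The heavy chain name was often a loose one. Best match scores, the higher of Nr and Swiss-Prot, ran from 55.5 to 2165 with a median of 102, and 20 of the 23 scored under 200. The best score was not always that of the match named for myosin, which could score lower. Unigene4094 had a best score of 160 but 57.8 for its myosin match, and CL1119.Contig1 had 102 but 50.8. A coiled coil can match a myosin rod without a motor domain, and KEGG orthology gave 10 of the 23 as myosin heavy chain, 9 as another protein and 4 as none. The other entries included early endosome antigen 1, a tether of endosomes, and structural maintenance of chromosome 4, a condensin subunit. Of the 10 given as myosin heavy chain 9 were lower and 1 higher, and of the 9 given as another protein 6 were lower and 2 higher. The share lower among those given as another protein lay near the 60.1% of all described unigenes. All 4 with no entry were lower. Summed log2 ratios were -1.52 for the myosin heavy chain entry, -0.56 for another protein and -1.41 for no entry. Being lower was thus not particular to the myosin entry. Among the 10, CL19668.Contig2 and CL19668.Contig6 share a cluster. In 8 heavy chains the nearest Nr match was a protist, and 6 of these were lower and 1 higher.

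**Figure D3:**
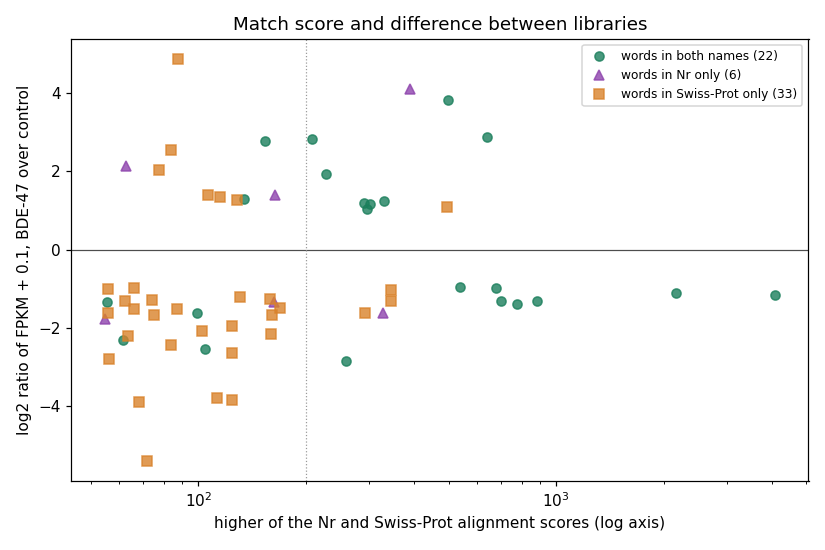
Higher of the Nr and Swiss-Prot scores of each member (log axis) against its log2 ratio of FPKM plus 0.1, with shapes for which of the names held a word of the rule and a dotted line at a score of 200. Under 200, 28 of 39 members were lower and 10 higher, and at 200 or above 10 of 22 were lower and 10 higher. Of members past the rule, 26.3% were thus higher under 200 and 50% at 200 or above. Among other described unigenes past the rule these shares were 37.7% and 33.2%. The higher score can belong to the name without a word of the rule, so it does not grade the names. CL7144.Contig1 scored 495 in Nr but 91.3 for its calponin-domain match. A link of score with direction was not tested.

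Unconventional myosins do not form thick filaments and serve transport, protrusions and sensory cells. Of the 6 members, 2 were higher, 3 lower and 1 not past the rule. CL10275.Contig1, matched to Myosin-XV of stereocilia in vertebrates, had 191 and 75 fragments, 2.60-fold lower, but its sister contigs had 109 and 150 and the cluster log2 ratio was -0.45. Unigene69108, named Myosin-XVI in Nr but G-box-binding factor in Swiss-Prot and ovo, a transcription factor, by KEGG, had 257 and 102 fragments, 2.57-fold lower. CL20090.Contig1, matched to Myosin-Va, a cargo carrier, had 77 and 24 fragments, 3.28-fold lower, and its cluster likewise gave -0.45. CL18500.Contig3, matched to Myosin-VIIa, had 161 and 81 fragments and was not past the rule, and its cluster had a log2 ratio of 0.20. Both members that were higher had a KEGG entry not named for myosin. Unigene55390 was named Myosin-IIIB in Nr and carried the KEGG entry and nucleotide match of chitin synthase, a membrane enzyme of shell and cuticle building. It had 3 and 76 fragments, a ratio of 24.8 (8.17 to 123). Unigene58619, matched to an amoeba myosin and given by KEGG as SEC24, a vesicle coat subunit, had 0 and 61 fragments, at least 19.9-fold higher.

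Titin and its relatives are giant chains of immunoglobulin and fibronectin folds that act as springs and rulers of the sarcomere. The 10 members in this group summed to 1014 and 1067 fragments, a log2 ratio of 0.04. Lower were Unigene9525 with 91 and 19 fragments (4.89-fold), Unigene7327 with 43 and 12, CL12055.Contig1 with 124 and 39, Unigene227 with 122 and 42, and CL5790.Contig2 with 179 and 74. Summed clusters were short of the rule for CL12055.Contig1, at a log2 ratio of -0.35, and for CL5790.Contig2, at -0.02, whose sister contig had 245 and 353 fragments. Higher were Unigene4212 with 168 and 439 fragments (2.56-fold), Unigene41028 with 20 and 86 (4.21-fold), Unigene58199 with 12 and 57 (4.65-fold) and Unigene36635 with 87 and 216 (2.43-fold). Of the higher ones, Unigene4212 was also titin by KEGG orthology, whereas Unigene36635 was named anillin, a scaffold of the cytokinetic ring, in Nr and unc-89, the obscurin of the worm Caenorhabditis elegans, in Swiss-Prot. For others too the name was a loose one. KEGG gave Unigene9525 as neurofascin, Unigene41028 as Down syndrome cell adhesion molecule and Unigene58199 as CD22 antigen. It gave Unigene227 as neurofilament heavy polypeptide and CL12055.Contig1 as an enolase-phosphatase. Best match scores of these were 63.5, 77.4, 62.8, 87 and 75.1 in that order. For Unigene41028 that score was to a hypothetical protein in Nr, and its titin match scored 49.7. CL14451.Contig1 was matched with a score of 537 to myosin light chain kinase, which switches on smooth muscle myosin, and its 168 and 83 fragments were not past the rule.

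Crosslinkers of actin filaments gave mixed directions. CL7797.Contig2, a filamin, which joins filaments at angles beneath the membrane, had 139 and 358 fragments, 2.52-fold higher, and its cluster kept a log2 ratio of 1.32. The other filamins were short contigs and were lower: Unigene71169 with 26 and 4 fragments, Unigene58109 with 41 and 8, and Unigene58108 with 49 and 16. Spectrin, which lines the membrane as a flexible lattice, was represented by CL9611.Contig2, the longest member at 8426 bases and the one with the highest score, 4089. It had 1770 and 802 fragments, 2.25-fold lower (2.07 to 2.45), while its sister of 8421 bases had 1025 and 1391, 1.33-fold higher (1.22 to 1.44). The cluster log2 ratio was -0.38, and CL9611.Contig2 went from 63.3% of the cluster (61.5 to 65.1) to 36.6% (34.6 to 38.6). Of the calponin-domain members, CL8812.Contig2 had 378 and 164 fragments, 2.35-fold lower, and CL7144.Contig1 had 73 and 164, 2.20-fold higher. Their clusters gave log2 ratios of -0.42 and 0.83. Both matched a slime mould protein that shares the domain and is not calponin itself.

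Gelsolin and severin cut actin filaments in a calcium-dependent way, and all 3 members were lower, with 693 and 302 fragments in sum, 2.34-fold lower. CL17390.Contig4 had 343 and 140 fragments, and CL17390.Contig3 in the same cluster had 272 and 135. The 4 contigs of that cluster together gave a log2 ratio of -0.49, short of the rule. Unigene20903, named for a gelsolin-related slime mould protein at a match score of 65.9, had 78 and 27 fragments, 2.95-fold lower. Its KEGG entry was a chromodomain helicase and not gelsolin. Unigene66810, named for Arp2, a subunit of the complex that branches new filaments, had 105 and 41, 2.62-fold lower. CL12761.Contig2, a phosphatase and actin regulator, had 27 and 65 fragments, 2.36-fold higher, though its cluster had a log2 ratio of -0.19. The remaining members matched the words without being filament proteins. CL9606.Contig1, with 137 and 52 fragments and a cluster log2 ratio of -0.13, matched an actin-dependent regulator of chromatin, and CL16554.Contig1, with 72 and 201 fragments, 2.73-fold higher (2.08 to 3.63), matched a muscle-isolated small heat shock protein given by KEGG as crystallin alpha B.

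**Figure D4:**
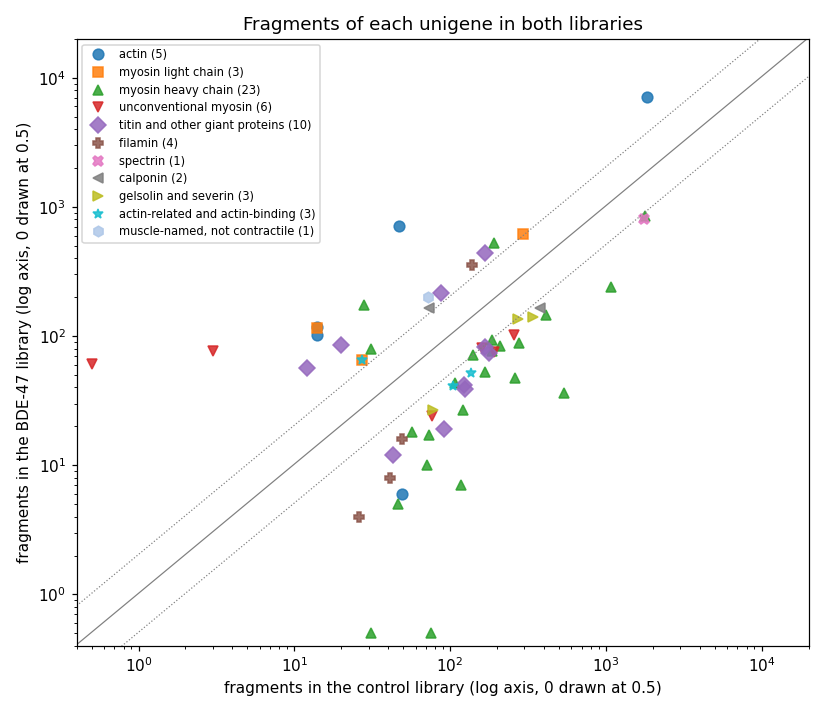
Fragments of each of the 61 members in the control and BDE-47 libraries (log axes, 0 drawn at 0.5), with shapes for roles, a solid line at equal share of the library and dotted lines at 2-fold. Light chains and 4 of 5 actins lie above the upper dotted line, and 20 of 23 heavy chains lie below the lower one, 1 of which was not past the rule.

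Many members shared a cluster with other contigs. Of the 61 members 31 lay in clusters with more than 1 contig. Of the 29 of these that were past the rule, 7 kept their call when all contigs of the cluster were summed, which is 24.1%, and 22 had no call. Among other described unigenes 661 of 2075 kept it, or 31.9%. The sister contigs, summed, went the opposite way to the member in 17 of 29 cases, against 1055 of 2022 among other described unigenes (52.2%), so neither share set the members far from other described unigenes. Of the 59 clusters 13 were higher, 22 lower and 24 not past the rule. The large actin, nonmuscle myosin II, spectrin and essential light chain clusters, all with abundant sister contigs, were among those not past it.

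The organism of the nearest Nr protein was a mollusc for 31 members, of which 10 were higher and 20 lower. It was another animal for 19 members, with 8 higher and 10 lower, and a protist for 10, with 1 higher and 8 lower. Of all described unigenes 33.9% were higher and 60.1% lower. Their split by organism was not computed, so the protist counts cannot be called particular to the members. Summed fragments of the protist-matched members numbered 1576 and 441 in the same libraries, a log2 ratio of -1.87. Whether these unigenes come from the clam or from organisms in its gut was not tested.

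Markers of the digestive gland itself and of other tissues differed between the same libraries. The counts below stand beside 33.9% higher and 60.1% lower of all described unigenes. Unigenes with names of mantle and shell proteins, 12 higher and 3 lower of 16, summed to 2059 control and 47695 BDE-47 fragments. Names of digestive gland proteins, 16 higher and 6 lower of 26, summed to 19072 and 11643. The most abundant of these held 27098 fragments over both libraries, so it dominated the sum, while their median log2 ratio was 2.90. Names of cilia, 1 higher and 9 lower of 11, summed to 2516 and 1446. Names of gonad proteins, 8 higher and 10 lower of 21, summed to 1213 and 1991 fragments. Names of blood cell proteins, 17 higher and 22 lower of 41, summed to 6213 and 7707. The 8 unigenes that matched bivalve muscle words, 4 higher and 4 lower and all of them members, summed to 1151 and 1232 fragments. Without the slime mould calponin-domain matches among them, left out with the values in view, they summed to 700 and 904, with 3 higher and 3 lower. Paramyosin, catchin and twitchin, which mark molluscan muscle, were in no description. The light chain Unigene56538, named for mantle muscle in Nr and for striated adductor muscle in Swiss-Prot, was higher, as were mantle and shell names in sum. So were the chitin synthase-like Unigene55390 and the 3 low animal actins. These members were picked with their direction in view, so the shared direction was fixed by that choice. Whether mantle and shell tissue had a part in those results was not tested.

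A list of other proteins that act with actin and muscle matched 92 described unigenes, 40 higher and 44 lower in BDE-47. Without chance matches of its words, such as disintegrin and neuroplastin, it held 78, 37 higher and 38 lower. Of all described unigenes 33.9% were higher and 60.1% lower. Among actin turnover proteins 3 of 10 were higher and 7 lower, near those shares. The fascin CL3785.Contig2, which bundles filaments in protrusions, had 4483 and 1999 fragments, 2.29-fold lower, and its cluster reached a log2 ratio of -1.19. CL774.Contig2, a WASP-related protein in Nr but a homolog of restin, a microtubule linker, in Swiss-Prot, had 1230 and 441, with a cluster log2 ratio of -0.35. Higher in this set were leiomodin-2, a nucleator of muscle actin, in Unigene1721 with 37 and 89 fragments, and tropomodulin, which caps thin filaments, in CL9882.Contig2 with 21 and 61. The cluster of the latter had a log2 ratio of -0.34.

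Adhesion proteins were 5 higher and 7 lower of 12, beside 33.9% higher and 60.1% lower of all described unigenes. An integrin alpha, Unigene25370, had 396 and 939 fragments, and the integrin beta CL3533.Contig2 had 632 and 292. CL2679.Contig2, ankyrin-1 in Nr but an ankyrin repeat protein of another family in Swiss-Prot, had 326 and 1427. Summed over contigs, the clusters of CL3533.Contig2 and CL2679.Contig2 gave log2 ratios of -0.61 and 0.81, short of the rule. Of 22 calcium and muscle energy unigenes 7 were higher and 15 lower, near the shares of all described unigenes. Calmodulin names made up 20 of the 22, with 7 higher and 13 lower. The most abundant calmodulin, the calcium sensor that drives myosin light chain kinase, CL8394.Contig1, had 2400 and 5241 fragments, 2.14-fold higher, and its cluster reached a log2 ratio of 1.11. The inositol trisphosphate receptor CL20372.Contig4, which releases stored calcium, had 530 and 216, with a log2 ratio of -0.51 for its cluster, short of the rule. Collagens were 20 higher and 7 lower of 30, and 17 of the 30 bore the name of alpha-4 to alpha-6(VI) chains.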

How the data were processed

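Poly(A) RNA of pooled digestive glands was sequenced on an Illumina HiSeq 2000, per the labels' protocols. Processing included CASAVA 1.5, per the submitters' processing notes. Which assembler, aligner, counter and search tool were run was not given in the sources used here. Counts of raw fragments on 124752 unigenes were deposited by the authors, with FPKM computed from them. The authors' deposited log2 ratio is BDE-47 over control FPKM. Each unigene also has the authors' p-value and FDR, whose test the sources do not name. For the 17625 called unigenes the authors gave database names with a match score. All of those have an FDR no higher than 0.000999 and a log2 ratio of 1 or more in size.

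The libraries held 15617772 and 15949448 fragments, with 1 library a group, so no test was run. Members, lists and naming rules were chosen with earlier results of these data known. Named are groups of 8 or fewer whole, otherwise the 5 most abundant and the 3 highest and 3 lowest ratios per role, every member with at least 2000 fragments, and the 3 most abundant listed pathway unigenes in each direction. Any other unigene named was picked with its values in view. Ratios of FPKM plus 0.1, exact intervals and a floor of 3 fragments for an empty library were computed with Python 3.11.15 and scipy 1.17.1. PCR fragments without molecular identifiers are not independent molecules, so intervals cover counting error only. Alternatives used edgeR 4.0.16 and DESeq2 1.42.0 for scaling factors alone. The rule was tested on simulated counts that held counting error alone, with changes placed only in well-covered unigenes. Variation between pools of clams was not simulated, so that test cannot show how the rule fares with it. The unigene sequences were not analysed here, so copies of near-identical genes cannot be separated, and no source says whether strand was used in counting.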

Additional observations from a re-analysis of the deposited data

How the results depend on the processing

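Each result compares 2 libraries, and the depth limits members under 100 fragments. No paired analysis was possible because each group holds 1 library. For changes below, the cause was not tested. Against 20 members higher and 38 lower, summing clusters gave 13 and 22, Nr words alone 13 and 13, words in both names 10 and 10, a score of at least 200, added after seeing the data, 10 and 10, and 1 member per description 16 and 20. Over all unigenes, no floor gave 17626 higher, and a floor of 100 fragments gave 2789 higher and 3988 lower. The members' summed log2 ratio was 0.18 with TMM, -0.0401 over all contigs of their clusters and -0.58 without CL6727.Contig8. With all contigs the sums were 0.0238 for actin, -0.59 for heavy chains and 0.21 for light chains. Without the most abundant member they were 2.88 for actin, 2.10 for light chains, 1.14 for calponin, -2.08 for filamin and -0.46 for titin, the last 3 reversed. Summing clusters reversed CL12761.Contig2 to -0.19, CL3282.Contig1 to -0.66 and CL18500.Contig3 to 0.20. TMM from unigenes with at least 20 fragments, added after seeing the data, shifted all log2 ratios by 0.12 and left 20 members higher and 35 lower. Of members, 7 lay within 0.1 of the log2 limit.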

Other observations

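Of the matching rows that the rule left out, 1 rested on a single control fragment. CL717.Contig7, 562 bases with a weak Swiss-Prot match to smooth muscle myosin light chain kinase and an Nr match to a putative cell surface protein family, had 1 control and 576 BDE-47 fragments, at a ratio of 564 (101 to 22316). CL4562.Contig3, a catalytic chain of phosphorylase b kinase, the enzyme that couples calcium to glycogen breakdown in muscle and liver, had 44 and 13 fragments, 3.46-fold lower (1.83 to 6.99).

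A second unigene with the chitin synthase orthology of Unigene55390 was Unigene51493, named chitin synthase in Nr. It had 2 control and 26 BDE-47 fragments, at a ratio of 12.7 (3.19 to 111). Both chitin synthase unigenes were near 0 in the control library. These unigenes were chosen after their values were seen.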
